A study of Mus musculus with 2 samples.

Results

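Blood vessels of the optic nerve are built from endothelial cells, which line the lumen, and from mural cells, the pericytes and smooth muscle cells that wrap them. A set of 42 genes was followed here, out of 23950 gene symbols in the deposited tables. The genes were chosen by name, and all 42 were listed. All but Cspg5, a gene of neurons and glia that the choice of names included and that is counted among the members, are known for endothelium, its barrier, its growth factors, pericytes or smooth muscle. RNA-seq was done on whole optic nerve of mice of mixed strain at postnatal day 12, with 1 library per group. The control group was Hdac3 f/+; Olig1-cre, and the Hdac3 cKO group was Hdac3 f/f; Olig1-cre. Both groups therefore carry the Cre recombinase driven from Olig1, a gene of the oligodendrocyte lineage, and the control has 1 Hdac3 allele that Cre can delete. How many animals were pooled for a library is not stated in the sources used here. The series title names HDAC3, a histone deacetylase, and the switch of fate between oligodendrocytes and astrocytes.

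In the central nervous system, endothelial cells form a barrier. Tight and adherens junctions seal the wall, and transporters in the endothelial membrane pump drugs out or carry nutrients in. Vascular endothelial growth factors and angiopoietins signal to receptor tyrosine kinases on the endothelium (Kdr, Flt1, Flt4, Tek), and endothelial cells recruit pericytes through PDGF-B and its receptor Pdgfrb. Smooth muscle cells of arterioles add a contractile apparatus of actin, myosin and their regulators.

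The values are FPKM, fragments per kilobase of transcript scaled by the total of fragments, so levels of different genes can be set side by side. A difference is log2 of cKO FPKM plus 1 over control FPKM plus 1. A gene was counted as higher or lower in the cKO library when it differed at least 2-fold on that scale and the deposited intervals of the libraries were separate. Each group has 1 library, so no difference could be checked against replicates or tested, and every statement below describes these 2 libraries. Of 14154 genes tested over the whole table, 4.73% were higher and 4.51% lower by this rule. The median difference of all tested genes was 0.12, and it was -0.16 after scaling both libraries to the same sum. Over tested genes the FPKM sum was 427964 in control and 548276 in cKO. The largest single value was 15976 FPKM in control and 77619 in cKO. Scaling to the same sum therefore depends strongly on single very abundant genes, here and wherever it is given below. Read depth is unknown. Among 1170 entries with the lowest control values, the ratio of control to cKO FPKM was most often near 3.17 (117 entries) and next most often near 1.58 (93 entries), and which of these is the ratio of single fragments was not settled. Hdac3 itself was at 36.4 FPKM in the control library and 38.0 in the cKO library, both above their own deposited intervals, and whole-gene values do not show which exons were read. Of 12 oligodendrocyte lineage markers, 11 were lower by the rule, with summed levels of 26812 FPKM in control against 3594 in cKO.

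Of the 42 genes, 41 had at least 1 FPKM in at least 1 library and were tested. Only 4 met the 2-fold rule. Anpep and Acta2, genes of mural cells, were higher in the cKO library, and Mcam and Mfsd2a were lower. Differences of the other 37 lay between -0.21 and 0.96. The 2 higher members of 41 stand beside 4.73% of all genes, and the 2 lower members beside 4.51%. A lower size threshold of 1.5-fold gave 15 higher members of 41, beside 16.0% of all genes, and the same 2 lower members, beside 8.85%. The difference was above 0 for 35 of 41 members, beside 61.4% of all genes. With libraries scaled to equal sums it was above 0 for 25 of 41. The median of all genes was then itself below 0, at -0.16, so the 61.4% does not apply to that count. That scaling also left 0 members higher by the 2-fold rule, beside 1.52% of all genes.

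The RefSeq sequence before the annotated gene start is shown for the 4 members that met the rule. It is also shown for Tek, an endothelial member whose promoter holds 2 of the motifs described below, which not all endothelial promoters do. Each line gives the 250 bases 5′ of the start in GRCm38.p6, a build other than the mm9 of the deposited tables. Capitals mark the short motifs described below the lines. The Acta2 stretch is chr19:34255374-34255623 on the minus strand, Anpep chr7:79848211-79848460 on the minus strand and Mcam chr9:44134408-44134657 on the plus strand. The Mfsd2a stretch is chr4:122961189-122961438 on the minus strand and the Tek stretch chr4:94739039-94739288 on the plus strand.
Acta2: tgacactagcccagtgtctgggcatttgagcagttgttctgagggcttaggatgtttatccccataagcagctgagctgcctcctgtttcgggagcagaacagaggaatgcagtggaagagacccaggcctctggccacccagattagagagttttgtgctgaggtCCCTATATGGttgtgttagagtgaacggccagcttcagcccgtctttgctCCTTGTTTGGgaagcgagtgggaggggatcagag
Anpep: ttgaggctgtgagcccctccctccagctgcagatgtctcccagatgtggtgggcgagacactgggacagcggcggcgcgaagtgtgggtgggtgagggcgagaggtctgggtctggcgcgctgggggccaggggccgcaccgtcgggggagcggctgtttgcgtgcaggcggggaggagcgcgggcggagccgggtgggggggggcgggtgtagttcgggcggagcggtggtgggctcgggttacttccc
Mcam: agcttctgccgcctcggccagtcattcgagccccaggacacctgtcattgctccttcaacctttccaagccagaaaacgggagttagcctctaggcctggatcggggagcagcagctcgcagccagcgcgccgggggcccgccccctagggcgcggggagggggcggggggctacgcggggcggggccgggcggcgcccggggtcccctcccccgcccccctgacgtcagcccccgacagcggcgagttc
Mfsd2a: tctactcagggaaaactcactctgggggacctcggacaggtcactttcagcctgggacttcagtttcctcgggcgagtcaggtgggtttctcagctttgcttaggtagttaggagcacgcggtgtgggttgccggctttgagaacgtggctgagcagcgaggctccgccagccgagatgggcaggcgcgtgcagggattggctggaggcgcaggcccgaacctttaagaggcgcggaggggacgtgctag
Tek: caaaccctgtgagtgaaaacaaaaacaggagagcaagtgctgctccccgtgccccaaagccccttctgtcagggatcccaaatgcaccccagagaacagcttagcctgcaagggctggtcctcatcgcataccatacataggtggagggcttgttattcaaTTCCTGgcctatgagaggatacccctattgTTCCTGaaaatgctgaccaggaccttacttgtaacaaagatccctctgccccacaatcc
The table of promoters held 26 of the 42 genes, with 34 starts among them. The CArG box, the binding sequence of serum response factor, was searched with its A/T core intact and, as a choice made after seeing the data, with 1 core base replaced by G or C. The box reads the same on both strands and overlapped no other motif searched. The intact box was in 0 of the 34 member promoters, beside 1.47% of 32851 promoters of the same length. With 1 core base replaced, at least 1 box was in 3 of the 34 member promoters (8.82%), beside 8.59% of all promoters. The 3 were those of Acta2, with 2 boxes starting 84 and 34 bases before the gene start, and of the endothelial genes Egfl7 and Kdr. The 6 letters CAGGAA, searched on both strands and typical of sites for ETS factors such as Erg and Fli1, were in 11 of 22 promoters of endothelial and barrier members. They were in 25.7% of all promoters. The 22 promoters belong to only 15 genes, some counted at several starts, and 9 of these 15 genes held the letters. Tek held CAGGAA at 2 sites, 89 and 59 bases before its start, while the promoters of Kdr and Flt1 held 0. Anpep, Mcam and Mfsd2a held none of these motifs in this window, and their stretches contained 72.8%, 73.6% and 61.6% G and C, against 53.6% for Acta2. These matches describe letters and were not tested for binding.

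**Figure D1:**
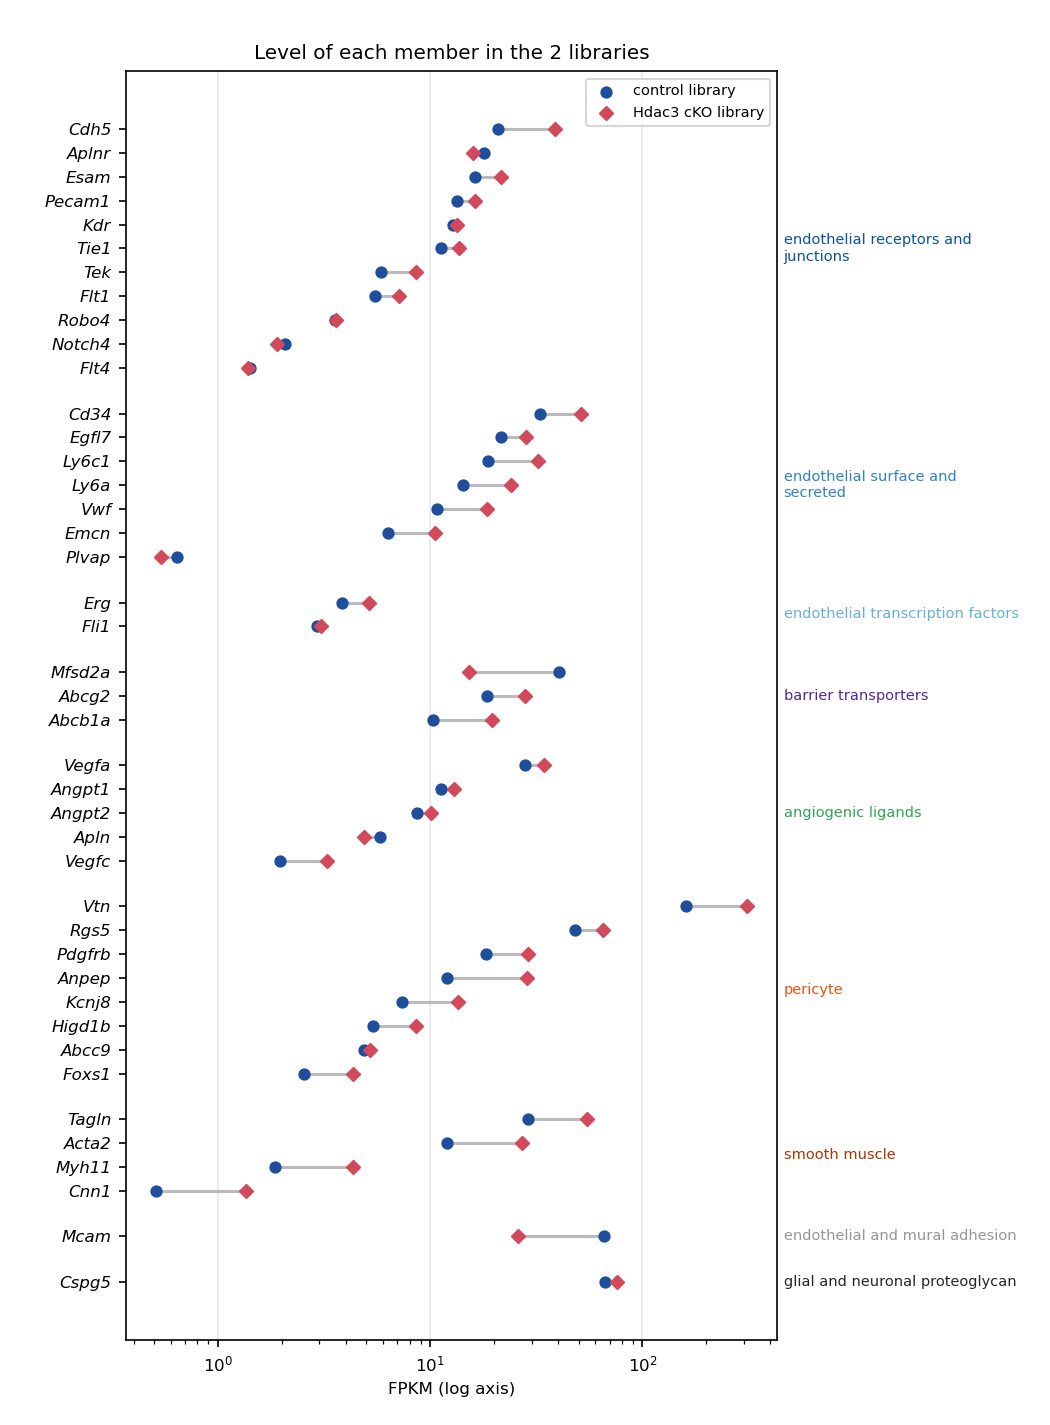
FPKM of each of the 42 genes (log axis) in the control library (circles) and the Hdac3 cKO library (diamonds), 1 library per group, ordered by role. Vtn is the most abundant member in both libraries, Mfsd2a and Mcam lie further left in the cKO library, and all pericyte and smooth muscle genes lie further right on the deposited scale.

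The endothelial receptors and junction genes differed little between the libraries, with Cdh5 as the member that differed most. Cdh5 (VE-cadherin, the adhesion molecule of endothelial adherens junctions, chromosome 8, 106625525 to 106668402 in mm9) was at 20.9 FPKM in the control library and 38.5 in the cKO library, a log2 difference of 0.85. Its intervals were separate, 19.2 to 21.4 and 36.0 to 37.8, and its cKO value lies above its own interval. Pecam1, an adhesion molecule of endothelial contacts, was at 13.3 FPKM in control against 16.3 in cKO, a log2 difference of 0.28. Esam, another adhesion molecule of these contacts, was at 16.3 and 21.5 FPKM (log2 difference 0.38). On the deposited scale these junction genes were thus all higher in the cKO library, each by less than 2-fold, while Pecam1 was below 0 with libraries scaled to equal sums.

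Of the VEGF receptors, Kdr, the main signalling receptor for VEGF-A, was at 12.8 FPKM in control against 13.3 in cKO. Flt1, a receptor that also binds VEGF-A, was at 5.48 and 7.15 FPKM, and Flt4, the receptor for VEGF-C, at 1.41 and 1.39 FPKM. The intervals of Kdr and Flt4 overlapped between the libraries, and those of Flt1 did not (log2 difference 0.33). The angiopoietin receptor Tek was at 5.87 FPKM in control against 8.55 in cKO (log2 difference 0.48). Its partner receptor Tie1 was at 11.3 and 13.6 FPKM (log2 difference 0.25). Both had separate intervals. Robo4, a guidance receptor of endothelium, was at 3.55 and 3.61 FPKM. Notch4, the endothelial Notch receptor, was at 2.08 and 1.91 FPKM. Neither had separate intervals. The apelin receptor Aplnr, at 18.0 FPKM in control against 15.9 in cKO, was the only one of these 11 genes with separate intervals and a lower cKO value (log2 difference -0.17), beside 22.5% of all genes tested. Of the 11, 0 met the 2-fold rule, and their median log2 difference was 0.25.

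Surface and secreted genes of endothelium were more uniform. All 6 tested members were higher in the cKO library with separate intervals, beside 38.4% of all genes tested. They were higher by 0.38 to 0.75 on the log2 scale, and 0 reached 2-fold. Vwf, the clotting factor that endothelium stores and releases, was at 10.7 FPKM in control against 18.5 in cKO. Ly6c1, whose close copy Ly6c2 may share reads with it, was at 18.7 and 32.2 FPKM and Ly6a, the Sca-1 antigen, at 14.2 and 24.1. Cd34, a sialomucin of endothelium that fibroblasts also express, was at 33.0 and 51.2 FPKM. The sialomucin Emcn was at 6.31 and 10.6 FPKM and the secreted factor Egfl7 at 21.6 and 28.3. Plvap, which forms the diaphragms of leaky capillaries and is a sign of endothelium without a barrier, was at 0.640 FPKM in control against 0.537 in cKO. It fell short of 1 FPKM in both libraries and was not tested. The transcription factors of endothelium were low in both libraries, Erg at 3.86 and 5.13 FPKM and Fli1, which blood cells and microglia also express, at 2.93 and 3.04, with overlapping intervals for each.

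The transporters of the barrier did not move in 1 direction. Mfsd2a carries lysophospholipids with docosahexaenoic acid into the brain and is known as a gene that keeps vesicle traffic across the barrier low (chromosome 4, 122624094 to 122638431 in mm9). It was at 40.4 FPKM in the control library and 15.2 in the cKO library, 2.66-fold lower in cKO, with a log2 difference of -1.35. Its deposited intervals, 35.3 to 39.3 and 13.3 to 14.8, were separate, and each value exceeds its own interval. The efflux pump Abcb1a (P-glycoprotein) went the other way, at 10.3 FPKM in control against 19.5 in cKO (log2 difference 0.86). The efflux pump Abcg2 was at 18.4 and 28.0 FPKM (log2 difference 0.58). Within a library, Mfsd2a was at 3.93 times the FPKM of Abcb1a in control and at 0.779 times in cKO, a comparison that no scaling between the libraries can change. The lower value of Mfsd2a stands beside the lower values of 11 of 12 oligodendrocyte lineage markers, and their part in it was not tested. In whole nerve, fewer cells of a type and less RNA per cell cannot be told apart, here and for every gene below.

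**Figure D2:**
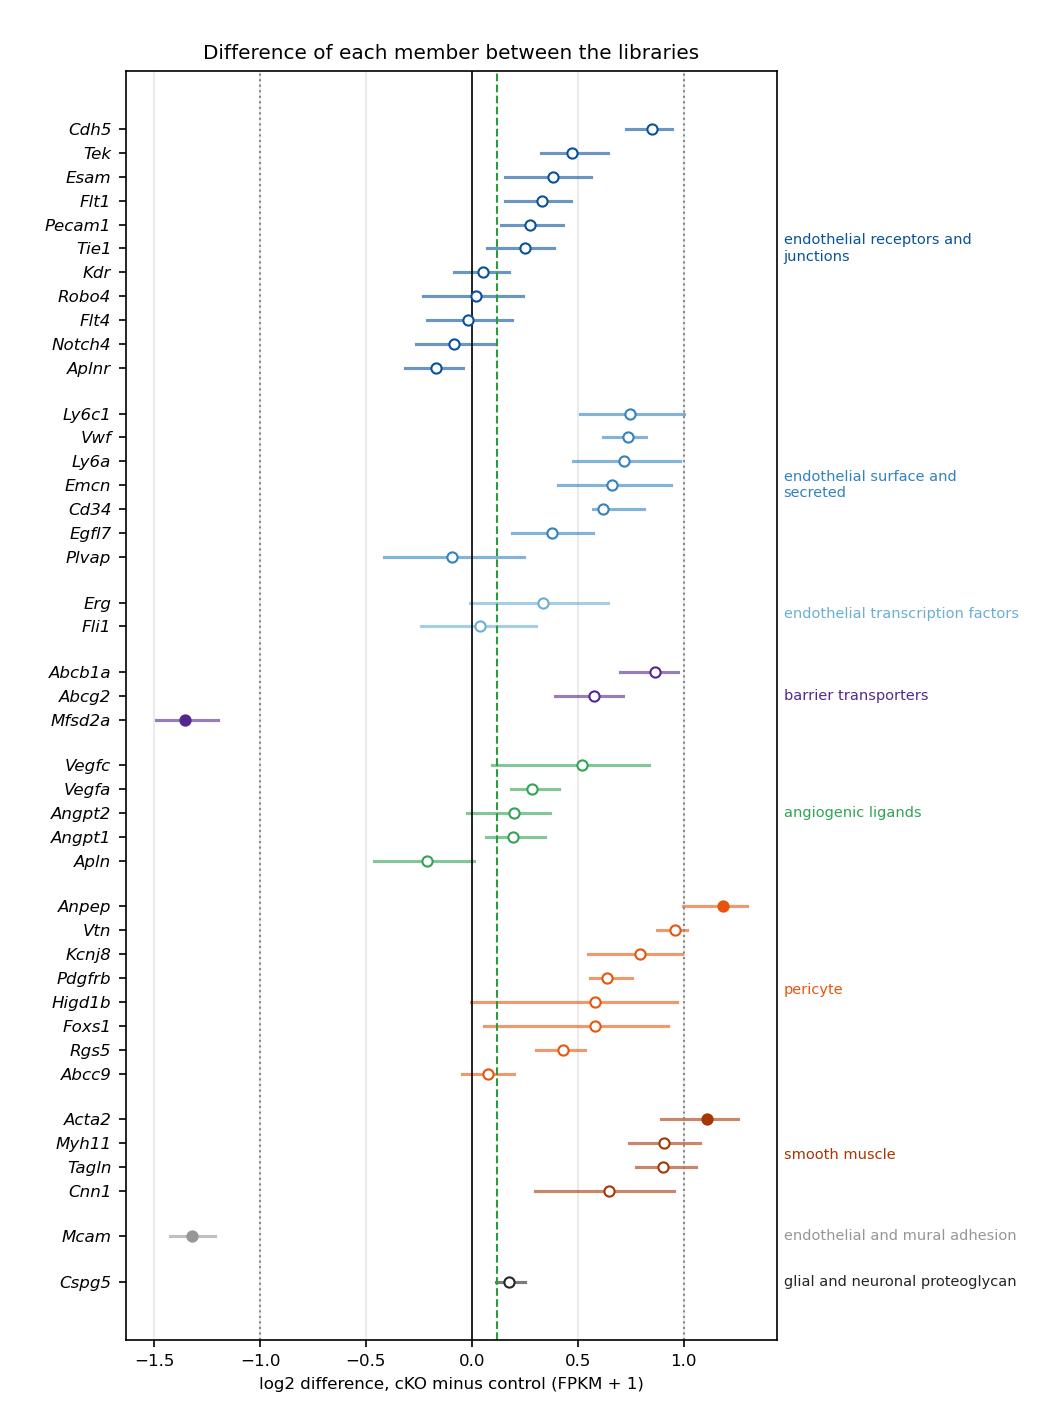
Log2 difference, cKO minus control on FPKM + 1, for each of the 42 genes, with lines spanning the differences that the deposited interval bounds allow. Filled points met the rule of 2-fold (dotted lines at -1 and 1) with separate intervals, and the dashed line is the median of all tested genes, 0.12. Mfsd2a and Mcam lie far to the left, and Anpep and Acta2 are the filled points on the right.

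Mcam (CD146), an adhesion molecule of endothelium and of pericytes and smooth muscle, was placed in neither class. It lies on chromosome 9 (43942741 to 43950809 in mm9). It was at 66.1 FPKM in the control library and 25.8 in the cKO library, 2.56-fold lower, with a log2 difference of -1.32. Its intervals, 60.0 to 64.8 and 23.5 to 25.3, were separate and lie below both values. It was the most abundant adhesion gene among the members in control, at 3.16 times the FPKM of Cdh5, and lay below Cdh5 in cKO, at 0.671 times. Endothelial and mural genes as groups did not share its direction. As with Mfsd2a, oligodendrocyte lineage markers were lower in the same library, and their part in the difference was not tested. Cspg5, a proteoglycan of neurons and glia known as neuroglycan C and not of vessels, was included by the choice of names. It was at 66.6 FPKM in control against 75.4 in cKO (log2 difference 0.18).

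The growth factors of vessels among the members were close between the libraries, and 0 met the rule. Their median log2 difference was 0.20 over 5 genes (-0.10 with libraries scaled to the same sum). Other ligands, outside the 42 genes, differed more and are given under the last heading. Vegfa, made by glia and other cells in response to low oxygen, was at 27.9 FPKM in control against 34.2 in cKO (log2 difference 0.29). Vegfc, a factor of lymphatic growth, was at 1.97 and 3.25 FPKM (log2 difference 0.52). Vegfa, Vegfc and Angpt1 had separate intervals. Angpt1, the angiopoietin that stabilises vessels, was at 11.2 FPKM in control against 13.0 in cKO, and Angpt2, which endothelium releases as it remodels, was at 8.63 and 10.1. The ratio of Angpt1 to Angpt2 was 1.30 in control and 1.29 in cKO. Apln, the peptide ligand made by endothelial tip cells, was at 5.79 FPKM in control against 4.86 in cKO, with overlapping intervals. Apln and its receptor Aplnr were thus both slightly lower in the cKO library, and the ratio of Apln to Aplnr was 0.322 in control and 0.307 in cKO.

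On the deposited scale mural genes were higher in the cKO library for all 12 members (all but Abcc9 once centred on the median or scaled to the same sum), 10 of them with separate intervals, where 38.4% of all tested genes were higher with separate intervals. Among pericyte genes, Vtn (vitronectin, an adhesive matrix protein that brain pericytes secrete) was the most abundant member of all. It lies on chromosome 11 (78312622 to 78315827 in mm9). It was at 160 FPKM in the control library and 312 in the cKO library, a log2 difference of 0.96 that stops just short of 2-fold. Each value exceeds its deposited interval, 138 to 149 and 273 to 281. Rgs5, a regulator of G-protein signalling in pericytes, was at 48.3 FPKM in control against 65.4 in cKO (log2 difference 0.43). Pdgfrb, the receptor by which pericytes are recruited, was at 18.2 and 28.9 FPKM (log2 difference 0.64). Higd1b and Foxs1 were at 5.40 and 2.55 FPKM in control and at 8.59 and 4.31 in cKO, and the intervals of Higd1b overlapped.

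Anpep (aminopeptidase N, CD13, a surface peptidase of pericytes that fibroblasts also express) had the largest difference upward of the 41 tested members. It lies on chromosome 7 (86966689 to 86987238 in mm9). It was at 11.9 FPKM in the control library and 28.4 in the cKO library, 2.38-fold higher, with a log2 difference of 1.19 and separate intervals of 10.7 to 12.6 and 26.2 to 27.8. The 2 subunits of the ATP-sensitive potassium channel of pericytes differed unequally. The pore subunit Kcnj8 was at 7.36 FPKM in control against 13.5 in cKO (log2 difference 0.80), and the sulfonylurea receptor subunit Abcc9 was at 4.87 and 5.19, with overlapping intervals. The ratio of Kcnj8 to Abcc9 was 1.51 in control and 2.60 in cKO.

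The smooth muscle genes were higher in the cKO library for all 4 members, with separate intervals in each, beside 38.4% of all genes tested. Acta2 (smooth muscle actin, chromosome 19, 34314826 to 34329863 in mm9) was at 11.9 FPKM in the control library and 27.0 in the cKO library, with a log2 difference of 1.11. Tagln (transgelin, an actin-binding protein of smooth muscle) was at 29.0 and 55.0 FPKM (log2 difference 0.90). Myh11, the smooth muscle myosin heavy chain, was at 1.85 and 4.35 FPKM. Cnn1 (calponin) was at 0.508 and 1.36 FPKM. Myh11 and Cnn1 were 2.35-fold and 2.68-fold higher as plain ratios, but at these low levels the added 1 FPKM brings their log2 differences to 0.91 and 0.65, under the 2-fold mark.

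Set side by side, pericyte and smooth muscle genes differed more than endothelial and barrier genes. The median log2 difference was 0.72 over the 12 mural genes (middle 50% of 0.58 to 0.92) and 0.36 over the 22 tested endothelial and barrier genes (middle 50% of 0.04 to 0.65), beside 0.12 over all genes. At 1.5-fold, 8 of 12 mural genes and 7 of 22 endothelial and barrier genes were higher, beside 16.0% of all genes. The summed FPKM of the mural genes was 302 in control and 554 in cKO, and that of the 23 endothelial and barrier genes was 292 and 378. The ratio of mural to endothelial FPKM within a library was 1.03 in control and 1.47 in cKO, and without Vtn it was 0.486 and 0.640. The endothelial sum includes Mfsd2a, at 40.4 FPKM in control and 15.2 in cKO. Its lower cKO value widens the difference between the 2 ratios, and the ratio without Mfsd2a is not given here. The endothelial median without Mfsd2a was 0.38. After scaling to the same sum the endothelial median was 0.059 and the mural median 0.48, beside -0.16 for all genes, and the endothelial genes then split into 13 above 0 and 9 below. The difference between the classes has no error from replicates and was not tested.

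**Figure D3:**
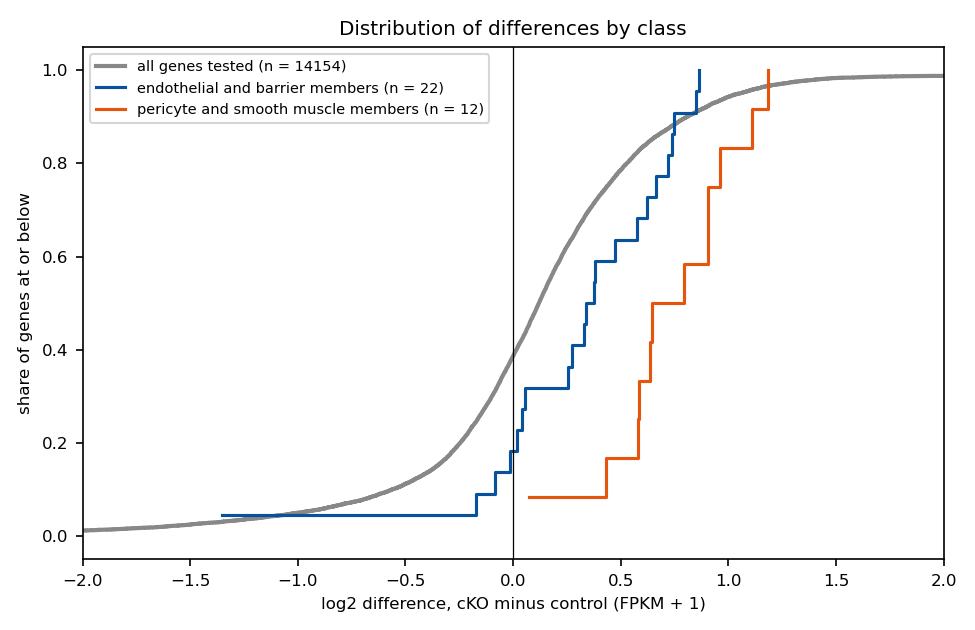
Cumulative share of genes (vertical axis) at or below each log2 difference, cKO minus control, for all 14154 tested genes, 22 endothelial and barrier genes and 12 pericyte and smooth muscle genes. The horizontal axis stops at -2 and 2. The mural curve lies to the right of the endothelial curve, which lies to the right of that of all genes except at its ends.

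Markers of other cells moved in the same libraries. All 13 meningeal fibroblast markers had higher values in cKO, 11 of them by the 2-fold rule, beside 4.73% of all genes. Their median log2 difference was 1.29, with summed levels of 2291 FPKM in control against 5484 in cKO. Among them Dcn was at 138 and 429 FPKM. Since fibroblasts of the nerve sheath also express Pdgfrb, Anpep, Cd34 and Ly6a, the class medians were also taken without these genes. They were then 0.72 for mural and 0.33 for endothelial and barrier genes. Pdgfrb (log2 difference 0.64) and Anpep (1.19) lie on opposite sides of the mural median, so leaving both out could not move it. The mural value therefore says nothing about the part of fibroblasts. The part of fibroblasts in the other mural genes was not tested. Of 5 red blood cell genes, 3 were tested and 2, Hba-a1 and Hbb-b1, were higher by the rule, with summed levels of 85.4 and 265 FPKM over the list, although globin copies share reads. Of 14 microglia markers, 0 met the rule, and the median of their log2 differences was 0.51. Of 12 astrocyte markers, 3 were higher and 0 were lower by the rule, beside 4.73% and 4.51% of all genes. Aqp4, named after its value was seen, was lower with separate intervals, at 181 and 153 FPKM. The astrocyte list had a median of 0.76 and summed levels of 1941 and 3346 FPKM. Skeletal muscle genes, which could bring in contractile transcripts, summed to 16.6 FPKM in control against 19.7 in cKO, and 0 of 3 tested met the rule. The 3 tested were Acta1 at 10.5 and 14.3 FPKM, with separate intervals, Tnnt3 at 2.75 and 3.86, and Mylpf at 2.17 and 1.06. Myh3 and Myh8, named after their values were seen, were below 0.05 FPKM in both libraries. The part of each of these cell types in the vascular values was not tested.

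Other endothelial and mural genes had medians near those of the members. Their lists were chosen by name with earlier results of these data known. Other ligands, given under the last heading, had a higher median than the ligand members. Of 38 other endothelial genes, 37 were tested, with a median log2 difference of 0.41. By the rule 1 was higher, beside 4.73% of all genes, and 0 were lower, beside 4.51%. The higher gene was Gpr124, a receptor for barrier-forming Wnt signals, at 17.9 and 36.8 FPKM. The most abundant genes of this list were Itm2a, at 143 FPKM in control against 238 in cKO, and the monocarboxylate transporter Slc16a1, which oligodendrocytes also express, at 85.0 and 135. Cldn5, the tight junction claudin of the barrier, differed little, at 64.1 and 68.5 FPKM (log2 difference 0.09, named after its value was seen). Of 27 other mural genes, 25 were tested, with a median of 0.65. The difference was above 0 for 20 of them, beside 61.4% of all genes, and below 0 for 5. With separate intervals 3 were lower, beside 22.5% of all genes. By the rule 4 were higher, beside 4.73% of all genes, and 1 was lower, beside 4.51%. The 4 higher genes were Ifitm1 (49.0 and 132 FPKM), the myosin light chain kinase Mylk (6.27 and 16.7), Atp13a5 (9.53 and 24.5) and the mural transcription factor Tbx18 (6.39 and 15.7). The 1 mural gene lower by the rule was Gucy1a3, a subunit of the nitric oxide receptor guanylate cyclase, at 9.32 and 3.98 FPKM (log2 difference -1.05). Myl9, a smooth muscle myosin light chain, was at 44.7 and 84.9 FPKM (log2 difference 0.91).

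**Figure D4:**
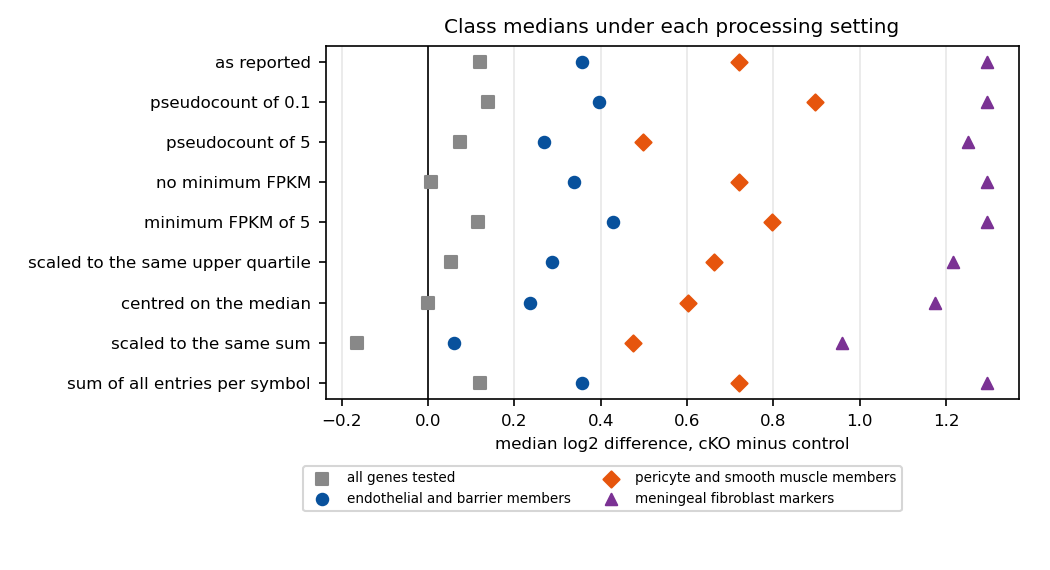
Median log2 difference, cKO minus control (horizontal axis), of 4 gene sets under each processing setting (vertical axis). In every setting shown the order from left to right is all genes, endothelial and barrier genes, mural genes and meningeal fibroblast markers, while scaling to the same sum moves all medians to the left.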

How the data were processed

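Whole optic nerve RNA of 2 libraries, 1 control and 1 Hdac3 cKO, was compared. The authors deposited FPKM per gene with an interval and a status for each value, per the file headers. CASAVA, TopHat, Cufflinks and the mm9 build are named in the submitters' processing notes, while tool versions, annotation and read numbers are not stated there. The deposited intervals miss the variation between animals, and for the 42 members the FPKM lies above its own interval in 4 control and 14 cKO values. The deposited lower bound of 1 gene outside the members was a placeholder, and that gene was not tested.

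Entries were matched by symbol, start group and locus, and where a symbol had several entries, the one with the largest FPKM sum was kept (24460 entries, 23950 symbols). Genes with status OK in both libraries and FPKM of at least 1 in at least 1 were tested, with a pseudocount of 1 and no rescaling. Starts of loci are printed 1-based. Calls were checked on simulated data. Python 3.11.15, numpy 2.4.6 and pandas 2.3.3 were used. Members and lists were chosen with earlier results of these data known. All members are named, and of other lists the 2 most abundant genes, the 2 with the largest absolute difference and any counted gene where 5 or fewer were counted could be named. A few others are given as named after their values were seen, and Myh3, Myh8 and the pairs of genes whose ratios are given were also chosen that way. Alternatives covered the pseudocount, the minimum FPKM, the scaling, the handling of entries, the interval, the fold and the members of each class.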

Additional observations from a re-analysis of the deposited data

How the results depend on the processing

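Mcam and Mfsd2a were lower by the rule in all 10 other settings tried for the counts, beside 2.40% to 8.85% of all genes. The count of higher members was 4 with a pseudocount of 0.1 (with Cnn1 and Myh11), beside 8.17% of all genes. It was 0 with a pseudocount of 5, beside 1.99%, and 1 after centring on the median (Anpep), beside 3.10%. After scaling to the same sum it was 0, beside 1.52%, and at 1.5-fold it was 15, beside 16.0%. The share of all genes thus moved with the settings too. The endothelial and barrier median was 0.24 when centred on the median and 0.059 when scaled to the same sum. The mural median was 0.90 with a pseudocount of 0.1, 0.50 with a pseudocount of 5, 0.60 after centring, 0.48 after scaling to the same sum and 0.61 for pericyte genes alone. The mural median exceeded the endothelial one by 0.36 as reported, by 0.50 with a pseudocount of 0.1, by 0.23 with a pseudocount of 5 and by 0.25 for pericyte genes alone. The log2 ratio of mural to endothelial summed FPKM was higher in cKO by 0.50 as reported, by 0.28 with Mcam among mural genes and by 0.40 without Vtn (chosen after seeing the data). Each of these values includes Mfsd2a in the endothelial sum. Scaling and pseudocount act here by construction. Signs changed for 10 members after scaling to the same sum: Abcc9, Angpt1, Angpt2, Cspg5, Fli1, Kdr, Pecam1, Robo4, Tie1 and Vegfa. After centring this held for 4 of them (Abcc9, Fli1, Kdr and Robo4), and after scaling to the same upper quartile for 3 (Fli1, Kdr and Robo4). No paired analysis was possible because each group has 1 library.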

Other observations

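Other growth factors and peptides that act on vessels, outside the 42 genes, had a median log2 difference of 0.89, beside 0.20 for the 5 members of that kind. Of 8 such genes, 6 were tested, 3 were higher by the 2-fold rule, beside 4.73% of all genes, and 0 were lower. Adm (adrenomedullin, a peptide that widens vessels) was at 4.37 FPKM in the control library and 12.6 in the cKO library (log2 difference 1.35). Angptl4, a secreted inhibitor of lipoprotein lipase, was at 8.16 and 20.8 FPKM (log2 difference 1.25), and Pgf, the placental growth factor that binds Flt1, was at 3.14 and 7.85 (log2 difference 1.10). Vegfb, another ligand of Flt1, was at 15.7 and 25.7 FPKM (log2 difference 0.68).

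The nitric oxide receptor is a pair of subunits, and the partner of Gucy1a3 was looked up after its value was seen. Gucy1b3 was at 9.38 FPKM in control against 6.08 in cKO (log2 difference -0.55), also lower in the cKO library but short of the rule. Cspg4 (NG2), a proteoglycan shared by pericytes and oligodendrocyte precursors and named after its value was seen, was at 9.93 and 6.93 FPKM (log2 difference -0.46). Pdgfb, the endothelial ligand of Pdgfrb, also named after its value was seen, was at 5.15 and 5.83 FPKM (log2 difference 0.15), so the ratio of Pdgfrb to Pdgfb was 3.55 in control and 4.96 in cKO.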
